A study of Homo sapiens with 18 samples.

Results

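The interferon response genes described here are 37 genes given by name, of 24408 genes in the files. They were picked for what they do, without a threshold on a measured value: sensors of foreign RNA, transcription factors, antiviral proteins and parts of the antigen-processing machinery. Earlier results of these data were known when the list was chosen. Levels came from RNA-seq of K562, a human erythroleukaemia cell line, in 6 groups of 3 libraries. The group no_lentivirus was not transduced. The other 5 groups carried lentivirus for catalytically inactive Cas9 (dCas9): KRAB_no_gRNA carried dCas9 fused to the KRAB repressor domain without a guide RNA (gRNA), dCas9_CR4 and dCas9_CR10 carried dCas9 without KRAB and the gRNA CR4 or CR10, and KRAB_CR4 and KRAB_CR10 carried the fusion with one of these gRNAs. Both gRNAs were aimed at HS2, an enhancer of the globin genes. Lentiviral cells met polybrene at 4 µg/ml and were selected with puromycin at 1 µg/ml from about 96 h. The labels repeat this treatment for all 18 samples, so whether the untransduced cells met polybrene or puromycin is not stated. The promoter that drove the constructs, and whether replicates were separate cultures, are not given in the sources used here. The p-values therefore measure the spread between these libraries, which may be technical. Virus, drug, polybrene and time in culture cannot be told apart in any comparison with the untransduced group.

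Interferons are secreted proteins that cells release when sensors meet viral RNA or DNA. At the cell surface they bind receptors that use the kinases JAK1 and TYK2, which phosphorylate transcription factors such as STAT2. STAT2 joins IRF9 in a complex that binds a short promoter element, the interferon-stimulated response element (ISRE), while type II interferon acts through another, the gamma-activated site (GAS). The genes switched on this way include sensors that feed back into the pathway, enzymes that block viral RNA, membrane proteins that hinder viral entry or release, and components of antigen presentation.

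The promoters below show what an ISRE looks like in some of the genes called below, and 1 called gene without it. RefSeq (GRCh38.p14) promoter windows, from 250 bases before to 50 bases after a start, were found for 27 of the 37 genes. Each window was searched on both strands for the ISRE core (GAAA, any 2 bases, GAAA) and for the GAS (TTC, any 3 bases, GAA). Matches to a motif could overlap each other. The ISRE core was in a window of 18 of these 27 genes, and in 22 of their 36 windows (61.1%), against 3.57% of all 35116 windows. The GAS was in a window of 10 of the 27 genes (37.0%), and in 30.6% of their windows against 7.66% of all windows. The 250 bases before the start are shown 5′ to 3′ on the strand of the gene, with ISRE matches of either strand in capitals. The first set, OAS3, IFIH1 and TAP1, is shown because these genes were lower in transduced cells under every setting tried. TAP1 has a second window without an ISRE match, which is not shown.
OAS3, chr12:112938224-112938473, plus strand: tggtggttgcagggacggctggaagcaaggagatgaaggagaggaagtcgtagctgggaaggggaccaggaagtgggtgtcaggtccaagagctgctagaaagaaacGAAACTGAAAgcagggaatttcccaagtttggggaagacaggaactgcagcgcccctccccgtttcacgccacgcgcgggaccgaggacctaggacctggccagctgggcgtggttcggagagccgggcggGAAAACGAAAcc
IFIH1, chr2:162318685-162318934, minus strand: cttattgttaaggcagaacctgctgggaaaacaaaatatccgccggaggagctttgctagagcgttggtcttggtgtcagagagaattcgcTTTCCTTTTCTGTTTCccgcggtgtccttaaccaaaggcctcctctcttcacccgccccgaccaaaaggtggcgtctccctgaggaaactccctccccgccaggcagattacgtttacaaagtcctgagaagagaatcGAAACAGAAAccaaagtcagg
TAP1, chr6:32853705-32853954, minus strand: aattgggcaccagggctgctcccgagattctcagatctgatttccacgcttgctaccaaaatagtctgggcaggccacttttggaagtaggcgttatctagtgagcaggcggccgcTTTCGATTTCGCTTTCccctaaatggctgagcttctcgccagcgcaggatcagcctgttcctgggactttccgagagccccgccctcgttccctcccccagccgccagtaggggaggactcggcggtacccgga

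The second set, IFITM1, IFITM3 and BST2, was chosen from the genes higher in the lentiviral libraries numbered 3 that hold an ISRE match in their window. IFI35, called in both comparisons, is shown as a gene whose window holds no ISRE match. The windows of IRF1, IRF9, STAT2 and PSMB9 hold no ISRE match either and are not shown. Those of IFI35, IRF1 and IRF9 do hold a GAS match, which is not marked. A second IFITM1 ISRE match began 6 bases before the start and ran past it, so it is not in capitals.
IFITM1, chr11:313790-314039, plus strand: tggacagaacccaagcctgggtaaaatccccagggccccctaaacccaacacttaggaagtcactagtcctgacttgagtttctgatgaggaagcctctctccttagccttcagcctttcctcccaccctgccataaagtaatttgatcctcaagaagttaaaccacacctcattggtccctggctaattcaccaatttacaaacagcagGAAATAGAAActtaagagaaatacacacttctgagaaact
IFITM3, chr11:320861-321110, minus strand: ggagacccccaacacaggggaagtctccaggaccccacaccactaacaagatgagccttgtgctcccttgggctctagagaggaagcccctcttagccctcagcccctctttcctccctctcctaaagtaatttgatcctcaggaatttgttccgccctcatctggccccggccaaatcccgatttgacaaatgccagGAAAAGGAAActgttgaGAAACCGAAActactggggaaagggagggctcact
BST2, chr19:17405631-17405880, minus strand: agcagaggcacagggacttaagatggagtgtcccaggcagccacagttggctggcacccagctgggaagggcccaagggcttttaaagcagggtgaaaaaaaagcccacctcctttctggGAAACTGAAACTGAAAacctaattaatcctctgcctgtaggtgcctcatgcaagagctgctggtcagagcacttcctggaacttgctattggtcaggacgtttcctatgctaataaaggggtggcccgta
IFI35, chr17:43006534-43006783, plus strand: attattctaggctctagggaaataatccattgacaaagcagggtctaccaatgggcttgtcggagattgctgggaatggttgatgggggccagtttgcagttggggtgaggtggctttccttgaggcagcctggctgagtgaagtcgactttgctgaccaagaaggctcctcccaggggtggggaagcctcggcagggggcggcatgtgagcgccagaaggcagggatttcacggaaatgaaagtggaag

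Facts of the whole series bear on every comparison. Libraries held 22805964 to 34032962 counts, at 2 counts per sequenced fragment, with at least 30561028 in each untransduced library and at most 32364862 in a lentiviral one. HBE1, a globin gene under HS2, had 55.8 to 95.1 CPM (counts scaled to library size with TMM factors) in the KRAB groups with a gRNA and 329 to 468 CPM in the other lentiviral groups (a check of the labels). On the first principal component (35.4% of the variance of 2000 genes) lentiviral libraries numbered 3 stood apart from those numbered 1 and 2. Those numbered 3 lay at -26.2 to -10.9, on the side of the untransduced libraries, and those numbered 1 and 2 at 10.8 to 25.6. No_lentivirus library 2 lay at -53.7, away from libraries 1 and 3 at -2.9 and -23.5. All 10 markers of K562 cells had counts. PTPRC, a leukocyte marker, stood at 125, 344 and 200 CPM in no_lentivirus libraries 1 to 3, at 64.6 to 98.0 CPM in lentiviral libraries 1 and 2 and at 71.7 to 108 CPM in lentiviral libraries 3. The 3 monocyte markers summed to 26.6 to 37.1, 11.1 to 17.0 and 21.6 to 28.4 CPM in the same order, nearly all of it from LYZ, with CD14 and CSF1R at or under 0.307 CPM in every library. The 3 T cell markers summed to 5.77 to 11.1, 3.89 to 7.11 and 6.11 to 7.72 CPM. The 3 B cell markers summed to 0.718 to 2.6 CPM over all libraries, with MS4A1 at 0 in all 18. Over all libraries the 2 epithelial markers summed to 128 to 178 CPM, the 3 fibroblast markers to 19.6 to 42.0 CPM and the 2 endothelial markers to 9.05 to 22.7 CPM. Several of these marker levels differed between the groups, and their part in the results below was not tested.

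The genes spanned levels from abundant to undetected. Per kilobase of transcript, IFITM1 led with a mean of 268 CPM per kilobase over the 18 libraries, followed by IFITM3 at 86.2, IFITM2 at 78.3 and BST2 at 74.2. The IFITM proteins sit in membranes and hinder the fusion of viruses with cells, and BST2, or tetherin, holds budding virus at the cell surface. ADAR, which edits double-stranded RNA, reached 45.6 and IRF3, the transcription factor that sensors activate, 34.2 CPM per kilobase. ISG15, EIF2AK2, STAT2 and IRF2 followed between 13.0 and 9.74 CPM per kilobase. The ranges over libraries of neighbours in this order overlapped, except between IFITM1 and IFITM3 and between IRF3 and ISG15. Among the RNA sensors OAS3 stood at 0.914, RIGI at 0.690, IFIH1 at 0.633 and DHX58 at 0.611 CPM per kilobase. IFI27, ISG20, IFIT1 and IFIT2, between 0.423 and 0.0593 CPM per kilobase, were the lowest of the tested genes.

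Several genes known for strong induction by interferon were at or near 0. No count of IFI44 or IFI44L was seen in any library, out of 488786710 counts over all 18 libraries. OAS2 had 4 counts over all libraries, OAS1 had 6, OASL 12, MX1 24 and IFIT5 46. MX2, which blocks the nuclear import of some viruses, had 48 counts, of which 26 were in no_lentivirus library 2 (0.806 CPM). These 8 genes did not pass the filter on low counts, which left 29 of the 37 genes tested. A gene that passed it only through the group where it is high had to differ, so the counts below describe the tested genes and not all 37. Mean levels reached at least 1 CPM in 24 genes. The type I, II and III interferons themselves were all but absent, with 19 of 21 ligand genes at 0 counts in all libraries, 8 counts of IFNK and 2 of IFNL1.

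**Figure D1:**
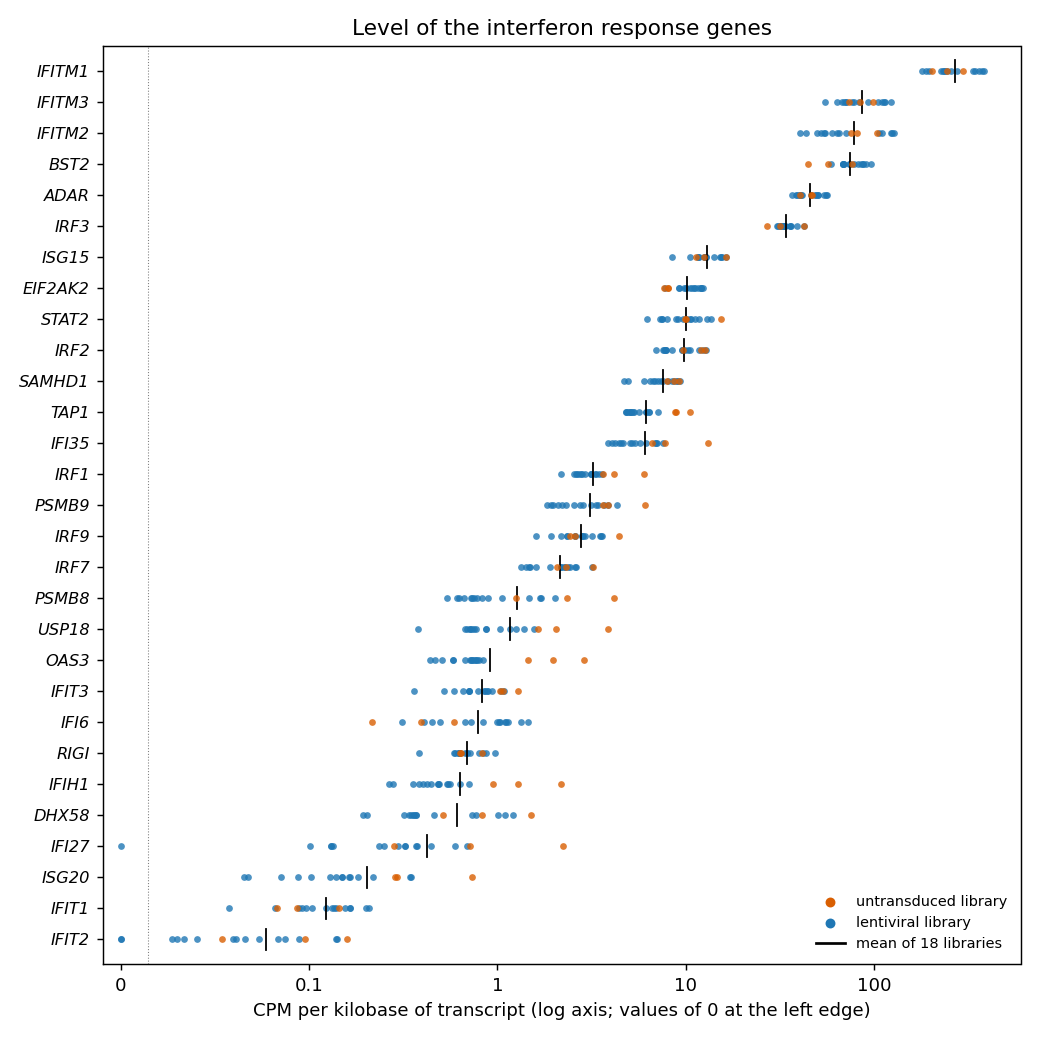
Level of each of the 29 tested interferon response genes in CPM per kilobase of transcript (log axis, values of 0 set at the left edge), with 1 point per library and a bar at the mean of 18 libraries. IFITM1 lies highest at 268 and IFIT2 lowest, and the 3 untransduced libraries of OAS3 and IFIH1 lie to the right of all 15 lentiviral ones.

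Transduced cells held less RNA of many of these genes than untransduced cells. With the edgeR quasi-likelihood test over all 18 libraries and an adjusted p under 0.05, 10 of 29 tested genes were lower in the 15 lentiviral libraries than in the 3 untransduced ones, and 1, EIF2AK2, was higher. Of all 14720 genes tested, 11.2% were lower and 7.55% higher. The median log2 fold change was -0.29 over the 29 genes and 0.01 over all genes. The 10 genes comprised 2 RNA sensors, 1 transcription factor, the deconjugating enzyme USP18, 3 antiviral effectors and all 3 antigen-processing genes. Of these, the effector IFI27 did not pass the filter on low counts in the fit of the 15 lentiviral libraries, so its call here is no support. In 5 genes, OAS3, IFIH1, IRF1, USP18 and TAP1, all 15 transduced libraries lay below all 3 untransduced ones, as in 4.24% of all genes tested, and in none did all 15 lie above (3.31%). In bulk RNA, fewer cells that express a gene and less RNA per cell cannot be told apart.

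Among the sensors, OAS3, which makes the 2-5A messenger that activates RNase L, stood at 9.83, 19.5 and 13.3 CPM in no_lentivirus libraries 1 to 3. Over the 15 lentiviral libraries it had a lowest level of 2.96, a median of 4.84 and a highest of 5.63 CPM. Even the lowest untransduced library thus lay above every transduced one, and this held in each of the 5 lentiviral groups. OAS3 was 3.15-fold lower in transduced cells (log2 fold change -1.65 ± 0.18 SE, edgeR adjusted p = 0.000141). IFIH1 encodes MDA5, the sensor of long double-stranded RNA. Its untransduced levels were 3.40, 7.81 and 4.62 CPM, and its lentiviral levels ran from 0.950 over a median of 1.73 to 2.53 CPM. The groups did not overlap, and IFIH1 was 3.17-fold lower (log2 -1.67 ± 0.24 SE, edgeR adjusted p = 0.000658). RIGI, the sensor of short RNA with a free triphosphate, had 2.79, 3.60 and 2.77 CPM against 1.68 to 4.21 CPM, with the untransduced libraries inside the transduced range (log2 -0.03 ± 0.21 SE). DHX58, or LGP2, a helper of MDA5, had 1.34, 3.97 and 2.18 CPM against 0.506, 0.966 and 3.18 CPM as lowest, median and highest, and did not pass (log2 -0.84 ± 0.47 SE, edgeR adjusted p = 0.227).

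EIF2AK2, the kinase PKR that halts translation when it binds double-stranded RNA, went the other way. It stood at 33.5, 35.1 and 34.9 CPM in untransduced cells and at 33.9, 47.0 and 54.0 CPM (lowest, median, highest) in transduced ones. Of the 15 transduced libraries 14 lay above all 3 untransduced ones, the exception being dCas9_CR4 library 2. EIF2AK2 was 1.34-fold higher (log2 0.42 ± 0.12 SE, edgeR adjusted p = 0.0215), and it lost the call when any 1 untransduced library was left out, with an adjusted p of 0.0609, 0.11 and 0.0742 without library 1, 2 and 3. ADAR, with 310, 270 and 313 CPM against 247, 310 and 376 CPM, overlapped between the groups (log2 0.04 ± 0.14 SE). Its 5 transcripts each took between 18% and 22.6% of its counts in every library, so the interferon-inducible long form could not be separated from the others. SAMHD1, which depletes the building blocks of DNA, also overlapped, at 42.3, 48.9 and 46.2 CPM against 24.8, 39.4 and 49.3 CPM (log2 -0.23 ± 0.17 SE).

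Of the 6 transcription factors IRF1 alone passed. IRF1, an activator that both interferon types induce, stood at 13.0, 21.6 and 14.9 CPM in untransduced cells and at 7.75, 10.4 and 12.8 CPM as lowest, median and highest of the transduced ones. These ranges did not touch, and IRF1 was 1.57-fold lower (log2 -0.65 ± 0.14 SE, edgeR adjusted p = 0.00668). STAT2 and IRF9, partners on the ISRE, did not pass, with log2 fold changes of -0.29 ± 0.21 and -0.22 ± 0.22 SE. IRF2, which competes with IRF1, and IRF7, the amplifier of interferon transcription, each had a log2 fold change of -0.29, with an SE of 0.16 and 0.23. IRF3 stood at 74.3, 46.9 and 55.4 CPM in untransduced cells and at 53.2, 58.3 and 73.7 CPM in transduced ones, so the transduced range lay inside the untransduced one (log2 0.02 ± 0.12 SE).

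USP18 removes ISG15 from proteins and blocks signalling from the interferon receptor. Its level was 3.52, 8.19 and 4.36 CPM in untransduced libraries, and 0.811, 1.63 and 3.34 CPM as lowest, median and highest in transduced ones. The highest transduced library, KRAB_CR4 library 3, came close to the lowest untransduced one without reaching it. USP18 was 2.82-fold lower (log2 -1.50 ± 0.27 SE, edgeR adjusted p = 0.00243). ISG15 itself, the ubiquitin-like tag, did not pass, at 10.4, 7.25 and 7.93 CPM against 5.42, 8.05 and 10.4 CPM (log2 -0.05 ± 0.17 SE).

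All 3 antigen-processing genes were lower. TAP1, a subunit of the peptide transporter, stood at 26.3, 31.3 and 26.1 CPM in untransduced libraries against 14.2, 15.6 and 21.0 CPM as lowest, median and highest of the transduced ones. The groups did not overlap, and TAP1 was 1.70-fold lower with the smallest error of the lower genes (log2 -0.77 ± 0.11 SE, edgeR adjusted p = 0.000803). PSMB8, a subunit of the immunoproteasome, had 1.70, 5.64 and 3.17 CPM against 0.730, 1.05 and 2.73 CPM. Its groups overlapped at the lowest untransduced library, and it was 2.59-fold lower (log2 -1.37 ± 0.38 SE, edgeR adjusted p = 0.0195). PSMB9, its companion subunit, had 2.85, 4.77 and 3.04 CPM against 1.44, 2.15 and 3.37 CPM and was 1.63-fold lower (log2 -0.71 ± 0.23 SE, edgeR adjusted p = 0.0395). PSMB9 lost the call in 12 of 28 alternative settings, several of which left out a single lentiviral library. The library preparation did not mark strand, and the antisense gene PSMB8-AS1 overlaps PSMB8 and TAP1, so reads of the antisense RNA could be counted in them. For the same reason values of IRF3, which overlaps BCL2L12, of EIF2AK2, which overlaps GPATCH11, of IFITM3, which overlaps IFITM3-AS1, and of the IFIT genes, which LIPA overlaps, are uncertain.

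Of the 7 tested antiviral effectors, 3 were lower. IFI35, a partner of NMI, had 8.19, 16.1 and 9.58 CPM in untransduced libraries and 4.79, 6.41 and 9.29 CPM as lowest, median and highest in transduced ones. Most transduced libraries, 11 of 15, lay below all untransduced ones, and IFI35 was 1.68-fold lower (log2 -0.75 ± 0.21 SE, edgeR adjusted p = 0.0223). ISG20, an exonuclease that degrades RNA, and IFI27, a mitochondrial protein, also passed, both at means under 1 CPM. IFI27 had 0 to 10 counts in lentiviral libraries and 6, 46 and 14 in no_lentivirus libraries 1 to 3. It entered this test with the help of the untransduced libraries, where it is high, so its call describes it and adds no support. ISG20 had 0.528 to 1.36 CPM against 0.0839 to 0.645 CPM (log2 -1.52 ± 0.44 SE), and IFI27 0.182 to 1.43 CPM against 0 to 0.442 CPM (log2 -1.87 ± 0.57 SE). IFIT3, a member of the IFIT family, had 2.67, 3.22 and 2.58 CPM against 0.906, 1.98 and 2.71 CPM and did not pass (log2 -0.56 ± 0.23 SE, edgeR adjusted p = 0.104). IFI6, which guards the endoplasmic reticulum against flaviviruses, had 0.182 to 0.496 CPM against 0.261 to 1.22 CPM and did not pass either (log2 1.09 ± 0.46 SE, edgeR adjusted p = 0.106). IFIT1 and IFIT2 had log2 fold changes of 0.29 ± 0.35 and -1.07 ± 0.61 SE at means under 1 CPM.

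None of the 4 membrane proteins passed in this comparison. IFITM1 stood at 253, 173 and 210 CPM in untransduced libraries and between 154 and 329 CPM in transduced ones, and IFITM3 at 79.7, 59.5 and 68.2 against 44.4 to 99.7 CPM. IFITM2 had 53.8, 68.8 and 50 CPM against 26.8 to 84.1 CPM. In each of the 3 the transduced libraries spanned both sides of the untransduced ones. BST2 had 77.6, 45.4 and 58.3 CPM against 60.6, 76.0 and 98.0 CPM as lowest, median and highest, with 7 transduced libraries above all untransduced ones (log2 0.38 ± 0.15 SE, edgeR adjusted p = 0.0947).

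**Figure D2:**
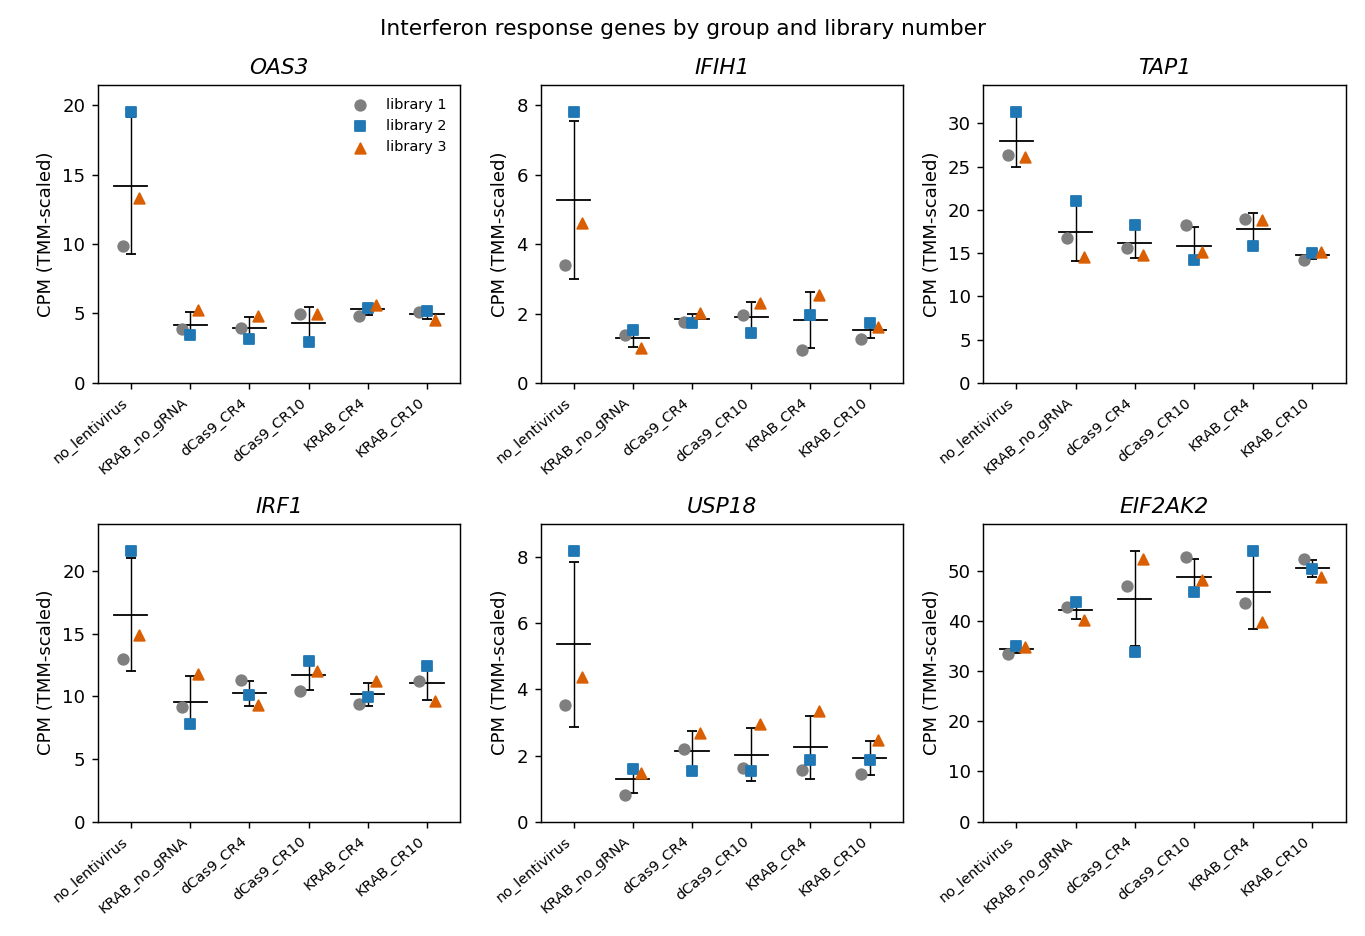
CPM (TMM-scaled) of 6 interferon response genes in each library, by group on the x axis and with a symbol per library number; lines and error bars give the mean ± SD of 3 libraries. The no_lentivirus libraries of OAS3 (9.83 to 19.5), IFIH1, TAP1, IRF1 and USP18 lie above every transduced library, and those of EIF2AK2 (33.5 to 35.1) below 14 of 15.

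The number of calls depended on 1 untransduced library. No_lentivirus library 2 was the highest of the 3 untransduced libraries in 22 of the 29 genes. The share over all genes was not counted, so this is not shown to be particular to these genes. The library also stood apart on the first principal component of the whole series. Leaving out library 2 left 3 genes past the threshold, where 2.32% of all genes were called (18.7% with all libraries) and 1.36% were lower. These were OAS3 (log2 -1.36, edgeR adjusted p = 0.00301), IFIH1 (log2 -1.27, adjusted p = 0.019) and TAP1 (log2 -0.68, adjusted p = 0.0148). IRF1 then had a log2 fold change of -0.41 (edgeR adjusted p = 0.144), USP18 of -1.06 (0.0729), IFI35 of -0.41 (0.355) and PSMB8 of -0.85 (0.311), with PSMB9 at -0.44, ISG20 at -0.93 and IFI27 at -0.78. Without untransduced library 3, 7 genes passed, where 9.01% of all genes did, and EIF2AK2, IFI27, PSMB8 and PSMB9 did not.

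The lentiviral libraries also divided by number, a split chosen after the data were seen. Set against the 3 untransduced libraries, the 10 numbered 1 and 2 gave 15 lower genes and 1 higher of 28 tested, where 21.5% of all genes were lower and 15.7% higher. The 5 numbered 3 gave 6 lower (OAS3, IFIH1, IRF1, USP18, TAP1 and SAMHD1) and 6 higher (EIF2AK2, BST2, IFI6, IFITM1, IFITM2 and IFITM3), where 11.7% of all genes were lower and 11.2% higher. OAS3 passed in both splits, with a log2 fold change of -1.76 with numbers 1 and 2 and -1.49 with number 3, as did IFIH1 (-1.78 and -1.48) and TAP1 (-0.76 and -0.83). PSMB8 was at -1.90 with numbers 1 and 2 and at -0.70 with number 3 (edgeR adjusted p = 0.159), and IFI35 at -0.99 and -0.40 (adjusted p = 0.163).

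KRAB_no_gRNA against the untransduced group compares virus that carries the repressor, without a target, with no virus. Of the 29 genes 5 were lower in KRAB_no_gRNA and 0 higher, against 3.76% and 2.87% of all genes (6.63% either way), by edgeR with all 18 libraries in the fit, and 11 genes had an unadjusted p under 0.05 (26.2% of all genes). The 5 were OAS3 (log2 -1.76 ± 0.26 SE), IFIH1 (-2.02 ± 0.36), USP18 (-2.05 ± 0.41), TAP1 (-0.68 ± 0.16) and IRF1 (-0.79 ± 0.20). OAS3 stood at 3.89, 3.42 and 5.22 CPM in KRAB_no_gRNA libraries 1 to 3, IFIH1 at 1.38, 1.52 and 0.998 CPM and USP18 at 0.811, 1.60 and 1.46 CPM. This comparison shares the 3 untransduced libraries with the one over all lentiviral groups. With only the libraries of these groups in the edgeR fit, 0 of the 28 tested genes passed, 10 had an unadjusted p under 0.05, and 0 of 14104 genes passed in all. DESeq2, with all 18 libraries, called 6, where it called 13.1% of all genes. Without no_lentivirus library 2 or without KRAB_no_gRNA library 1, OAS3 alone passed, where 0.275% and 0.18% of all genes did. Without no_lentivirus library 3 the genes were OAS3, IFIH1 and USP18 (1.43% of all genes), and without no_lentivirus library 1 there were 9 (16.3% of all genes).

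Other genes of the pathway were counted from lists of ligands, receptors and signalling proteins, sensors and adaptors, other induced genes, and antigen presentation. Of their 78 tested genes, 14 were lower in transduced cells (17.9%, against 11.2% of all genes). Higher were 2, MAVS and PNPT1 (2.56%, against 7.55% of all genes). The median log2 fold change of the 78 genes was -0.18. The 20.5% of them called either way lay near the 18.7% of all genes. Without no_lentivirus library 2, edgeR called 0 of them, against 2.32% of all genes, and 16 had an unadjusted p under 0.05. Without library 3 it called 8 (9.01% of all genes), and without library 1 it called 27 (24.3% of all genes). The receptor subunits IFNAR1 (91.4, 92.3 and 96.2 CPM against 78.2 to 99.0) and IFNAR2 (20.6, 29.6 and 24.0 against 16.1 to 30.7) did not pass. Among the kinases JAK1 was lower, at 155, 236 and 182 CPM against 115 to 153 CPM (log2 -0.57 ± 0.11 SE, edgeR adjusted p = 0.00311), and TYK2 was not called (log2 0.09 ± 0.16 SE). MAVS, the adaptor that RIG-I and MDA5 share, was 1.47-fold higher at 142, 107 and 112 CPM against 126 to 226 CPM (edgeR adjusted p = 0.012). The DNA sensor CGAS had 18 counts over all 18 libraries, while its partner STING1 stood at 59.5, 82.3 and 64.0 CPM against 43.5 to 79.9 CPM and did not pass.

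No interferon response gene passed between the lentiviral groups. The comparisons of KRAB_CR4 and KRAB_CR10 with KRAB_no_gRNA, which ask what adding a gRNA does, gave 0 of 29 genes by edgeR, as did those with the dCas9 group of the same gRNA, which ask what the KRAB domain does. Of all 14720 genes 0.0204% passed in each of these 4. The mean of the KRAB effect over both gRNAs (0.0272% of all genes called, 0.00679% higher), the difference between the effects with CR4 and CR10 (0.0%) and dCas9 with a gRNA against KRAB_no_gRNA (0.0%) also gave 0 of 29. DESeq2 called 0 in each of these 7 comparisons too. At an unadjusted p under 0.05 in the edgeR fits there was 1 gene in 3 of them and 0 in the other 4. It was IFIT1 in KRAB_CR4 against dCas9_CR4 (log2 -1.16 ± 0.46 SE, where 0.999% of all genes were under 0.05) and in the difference of effects (log2 -1.45 ± 0.64 SE, 0.346%), and IFIT2 in dCas9 with a gRNA against KRAB_no_gRNA (log2 -1.76 ± 0.79 SE, 0.673%). The 4 comparisons with 0 such genes were KRAB_CR4 (1.71% of all genes) and KRAB_CR10 (1.49%) against KRAB_no_gRNA, KRAB_CR10 against dCas9_CR10 (0.496%) and the mean KRAB effect (1.26%). Both genes were under 1 CPM.

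With KRAB and a gRNA, 21 of 29 genes had a positive log2 fold change against KRAB_no_gRNA both for CR4 (median 0.12) and for CR10 (median 0.20), where the medians of all genes were 0.00 and -0.02. The KRAB_no_gRNA libraries are shared by these comparisons. For KRAB against dCas9 over both gRNAs the median was 0.13, and 22 of 29 values were positive. Since library numbers pair the lentiviral libraries, the same comparisons were also fitted over these 15 libraries with the number as a replicate block, which tests 27 of the genes. This fit again called 0 of 27 genes in each of the 7 comparisons by edgeR, where 0.0% to 0.0959% of all genes passed. At an unadjusted p under 0.05 there were 1 to 4 genes, where 1.64% to 10.3% of all genes were. For KRAB_CR10 against KRAB_no_gRNA these were IRF2, IRF9 (log2 0.45 ± 0.17 SE), PSMB9 (0.59 ± 0.24) and SAMHD1 (0.34 ± 0.14), where 10.3% of all genes were under 0.05. For KRAB against dCas9 over both gRNAs they were IFITM2 (log2 0.24 ± 0.08 SE), OAS3 (0.34 ± 0.14) and IFI35 (0.22 ± 0.10), where 5.22% of all genes were. In the latter comparison the 95% interval of the log2 fold change lay inside -1 to 1 in all 24 genes at 1 CPM or more with the block, and in 23, all but DHX58, without it. With the block the interval ran from 0.03 to 0.66 for OAS3, from -0.19 to 0.25 for TAP1, from -0.03 to 0.33 for IFITM1 and from -0.11 to 0.18 for ADAR. Against KRAB_no_gRNA the interval was inside these bounds in 21 of the 24 genes with the block both for KRAB_CR4 and for KRAB_CR10, and in 18 and 15 without it.

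**Figure D3:**
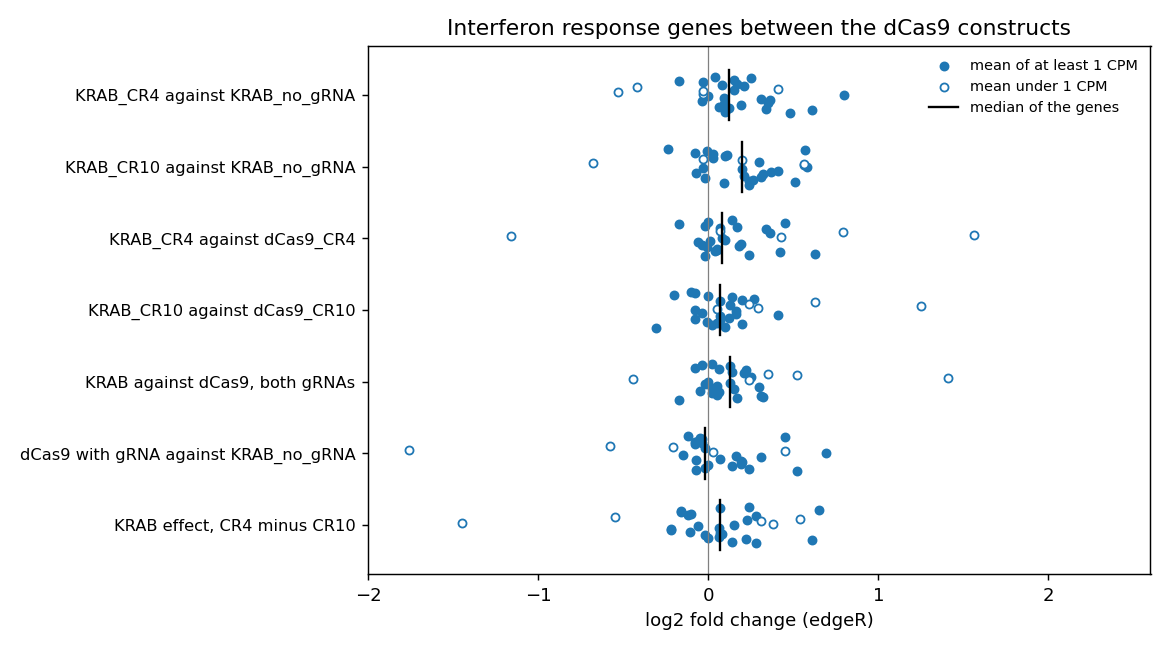
Log2 fold changes (edgeR) of the 29 tested interferon response genes in 7 comparisons of the lentiviral groups, 1 point per gene, filled at a mean of at least 1 CPM and open below, with a bar at the median. None passed, the medians lie between -0.02 and 0.20, and all values beyond 1 in either direction belong to genes under 1 CPM.

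Many genes of the series differed between lentiviral libraries of different number, interferon response genes among them. This comparison was chosen because earlier results of these data had shown that libraries numbered 3 stand apart. In a fit of the 15 lentiviral libraries with the group as covariate, 15 of 27 tested genes were higher in the 5 libraries numbered 3 than in the 10 numbered 1 and 2, and 2 were lower (edgeR, adjusted p under 0.05). Thus 55.6% of the 27 genes were higher and 7.41% lower (63.0% in all). Of all 14605 genes tested, 27.9% were higher and 25.9% lower (53.8% in all), so the share called either way was not far from that of all genes. The median log2 fold change was 0.46 over the 27 genes and 0.03 over all genes. What the number stands for is not given in the labels, so the cause of this difference was not tested. Lentiviral libraries of the same number had correlated deviations, so they are not independent replicates of a number. The SE and p-values of this comparison measure the spread left between libraries after group and number. They do not measure the spread between numbers. In 8 genes (IFITM1, IFITM2, IFITM3, BST2, DHX58, STAT2, IFI35 and PSMB8) all 5 libraries numbered 3 lay above all 10 others, as in 9.12% of all genes, and in none did they all lie below (11.7%). Below, the libraries numbered 3 are given in the order KRAB_no_gRNA, dCas9_CR4, dCas9_CR10, KRAB_CR4 and KRAB_CR10, and the 10 others as lowest, median and highest.

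All 4 membrane proteins were higher. IFITM2 stood at 80.9, 72.8, 70.2, 84.1 and 81.8 CPM in the libraries numbered 3 and at 26.8, 36.0 and 46.8 CPM in the others. Its lowest library numbered 3 lay well above the highest of the others, and IFITM2 was 2.18-fold higher (log2 1.12 ± 0.07 SE, edgeR adjusted p = 2.77e-10). IFITM1 had 321, 294, 286, 329 and 308 CPM against 154, 200 and 236 CPM, and was 1.61-fold higher (log2 0.68 ± 0.07 SE, edgeR adjusted p = 2.08e-07). IFITM3 had 99.7, 85.2, 89.1, 91.1 and 92.3 CPM against 44.4, 57.4 and 74.9 CPM (log2 0.67 ± 0.07 SE, edgeR adjusted p = 1.40e-07). The libraries numbered 3 were the highest of their group for each of these genes in all 5 groups. The 3 genes are close paralogues on chromosome 11, and reads that match more than 1 of them could have been divided between them in the counting. BST2 had 98.0, 92.8, 89.3, 88.8 and 86.7 CPM against 60.6, 70.4 and 83.4 CPM, a smaller rise of 1.28-fold without overlap (log2 0.35 ± 0.06 SE, edgeR adjusted p = 9.53e-05).

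Of the sensors DHX58 alone passed. It had 1.92, 2.01, 2.87, 3.18 and 2.63 CPM in the libraries numbered 3 against 0.506, 0.922 and 1.20 CPM, a 2.94-fold rise (log2 1.55 ± 0.19 SE, edgeR adjusted p = 8.73e-07). OAS3, IFIH1, RIGI and EIF2AK2 did not pass, with log2 fold changes of 0.27 ± 0.13, 0.25 ± 0.20, -0.27 ± 0.17 and 0.00 ± 0.09 SE. Both genes of nucleic acid editing and dNTP control were lower. ADAR had 247, 279, 260, 267 and 257 CPM against 270, 334 and 376 CPM (log2 -0.30 ± 0.06 SE, edgeR adjusted p = 0.000347), and SAMHD1 24.8, 34.4, 36.5, 26.1 and 35.6 CPM against 31.9, 43.7 and 49.3 CPM (log2 -0.43 ± 0.10 SE, edgeR adjusted p = 0.000784). Their ranges overlapped slightly.

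Of the transcription factors 4 of 6 were higher. STAT2 had 34.8, 38.2, 44.3, 42.1 and 36.5 CPM against 20.3, 27.4 and 34.5 CPM, with no overlap by a narrow margin (log2 0.53 ± 0.08 SE, edgeR adjusted p = 2.11e-05). Its partner IRF9 had 5.15, 5.37, 6.45, 6.60 and 6.54 CPM against 2.96, 4.52 and 5.82 CPM (log2 0.46 ± 0.11 SE). IRF2 had 21.9, 27.0, 24.3, 29.5 and 28.5 CPM against 16.1, 18 and 23.8 CPM (log2 0.46 ± 0.08 SE). IRF2 and IRF9 overlapped at their edges, and IRF7 passed closer to the threshold, at 4.45 to 6.52 against 2.74 to 5.37 CPM (log2 0.40 ± 0.15 SE, edgeR adjusted p = 0.0327). IRF1 (log2 0.08 ± 0.10 SE) and IRF3 (0.07 ± 0.07) did not pass.

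Both immunoproteasome subunits were higher, and the transporter was not called. PSMB8 had 2.30, 1.43, 2.73, 2.28 and 1.99 CPM against 0.730, 0.981 and 1.21 CPM and was 2.24-fold higher without overlap (log2 1.16 ± 0.19 SE, edgeR adjusted p = 3.74e-05). PSMB9 had 2.15, 2.69, 3.37, 2.61 and 3.03 CPM against 1.44, 1.77 and 2.88 CPM, with overlap (log2 0.56 ± 0.15 SE, edgeR adjusted p = 0.00431). TAP1 had 14.5, 14.8, 15.1, 18.8 and 15.1 CPM against 14.2, 16.2 and 21.0 CPM (log2 -0.08 ± 0.09 SE). All 5 TAP1 libraries numbered 3 lay within the range of the others.

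Among the remaining genes IFI35 had 8.68, 7.56, 8.61, 9.29 and 8.46 CPM in the libraries numbered 3 against 4.79, 5.67 and 7.08 CPM in the others, with no overlap (log2 0.58 ± 0.10 SE, edgeR adjusted p = 3.50e-05). USP18 had 1.46, 2.69, 2.94, 3.34 and 2.47 CPM against 0.811, 1.58 and 2.21 CPM, higher in 4 of 5 groups (log2 0.68 ± 0.18 SE, edgeR adjusted p = 0.00285). IFIT3 had 2.15, 2.35, 2.22, 2.61 and 2.71 CPM against 0.906, 1.76 and 2.21 CPM (log2 0.55 ± 0.18 SE, edgeR adjusted p = 0.0124). IFI6 passed as well at 0.839 to 1.22 against 0.261 to 0.961 CPM (edgeR adjusted p = 0.036). ISG15 (log2 0.24 ± 0.11 SE, edgeR adjusted p = 0.0756) and ISG20 (log2 0.84 ± 0.41 SE, edgeR adjusted p = 0.0866) did not. In USP18, IFI35, PSMB8 and PSMB9 the libraries numbered 3 were closer to the untransduced levels than the libraries numbered 1 and 2 were. By means this also held for DHX58, STAT2, IRF2, IRF7, IRF9 and IFIT3, and not for IFITM1, IFITM3, BST2 and IFI6. DHX58 had means of 2.49 CPM in untransduced libraries, 2.52 CPM in number 3 and 0.87 CPM in numbers 1 and 2. The first principal component of the whole series divided the libraries in the same way.

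**Figure D4:**
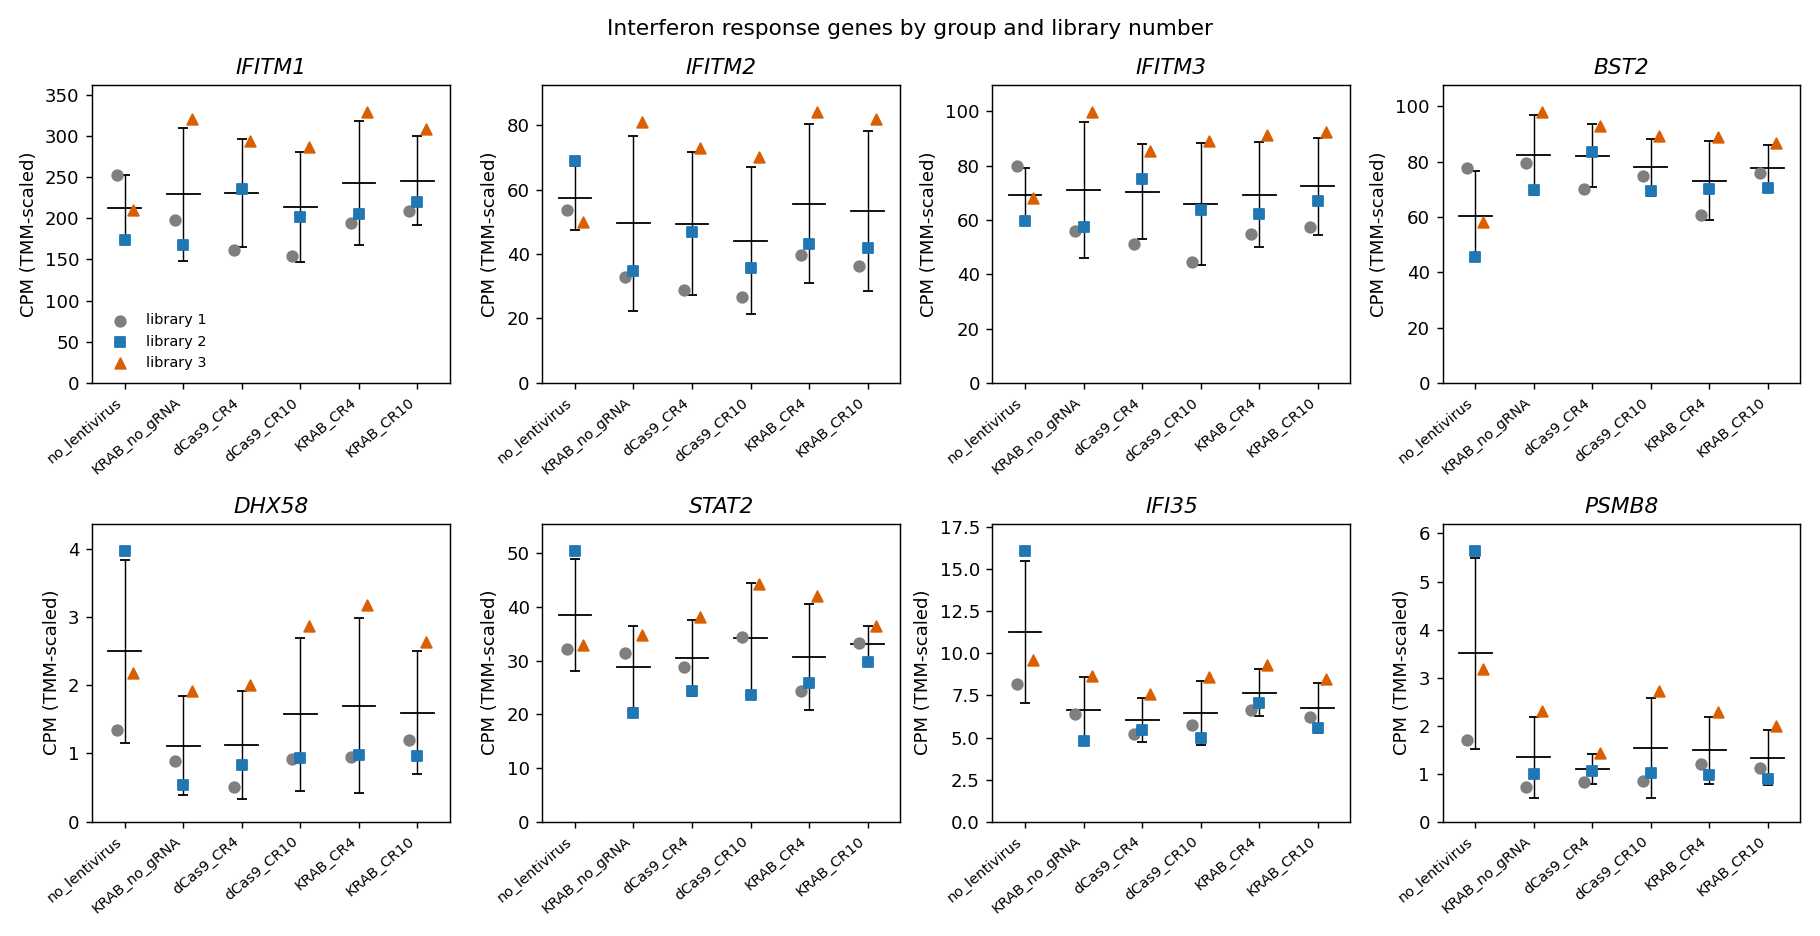
CPM (TMM-scaled) of the 8 interferon response genes whose lentiviral libraries numbered 3 did not overlap those numbered 1 and 2, by group on the x axis, with a symbol per library number; lines and error bars give the mean ± SD of 3 libraries. The triangles of library 3 are the highest in each lentiviral group, from 286 to 329 for IFITM1, and not in no_lentivirus.

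**Figure D5:**
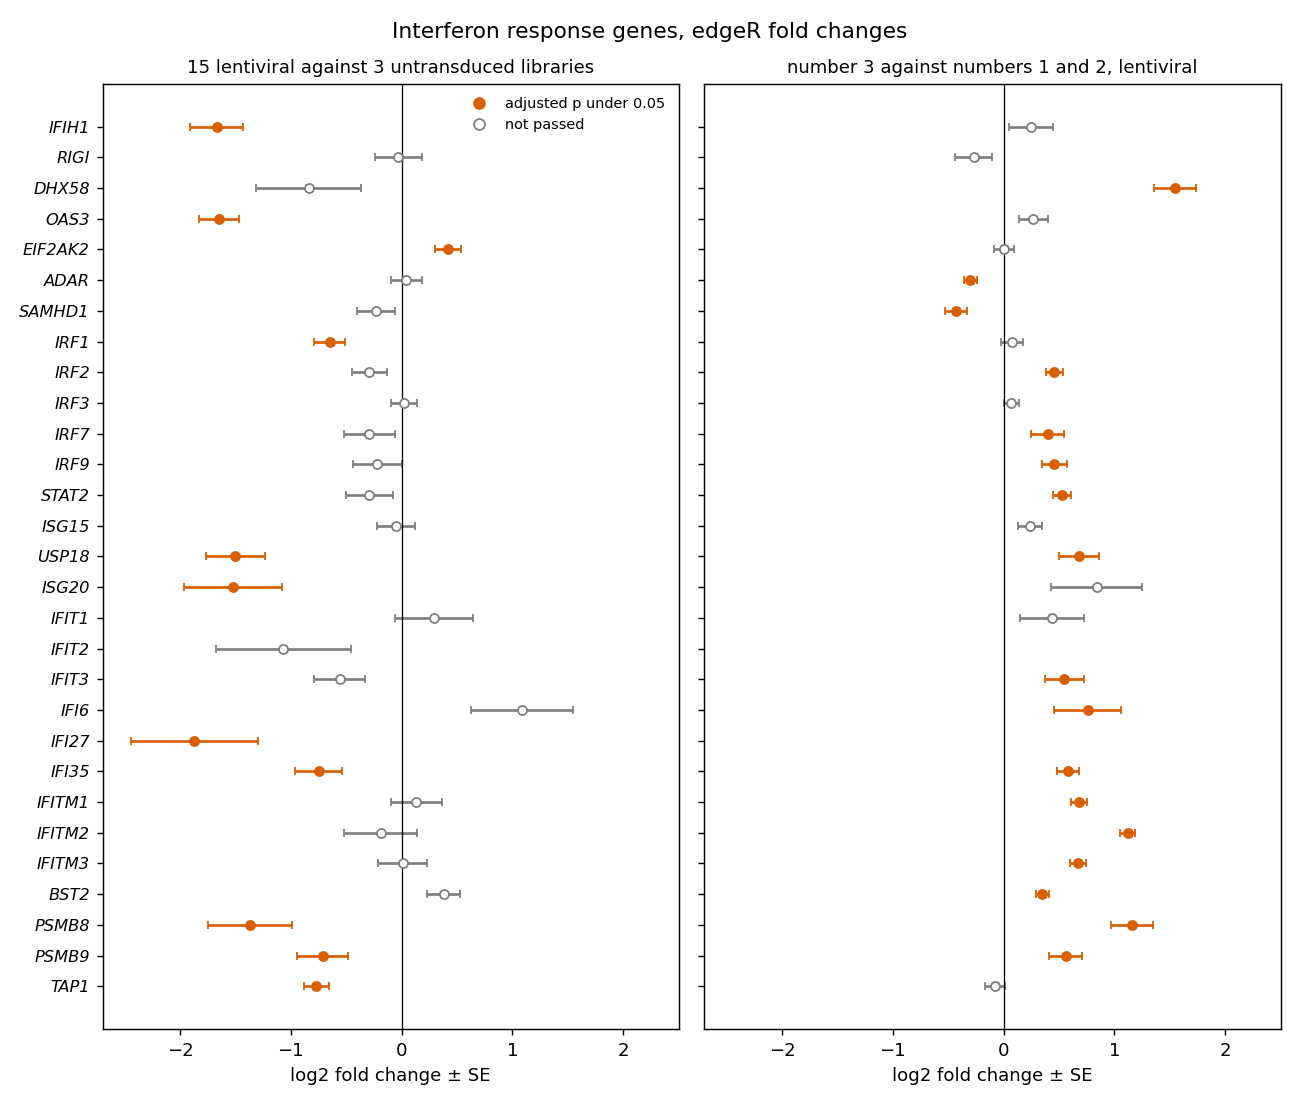
Log2 fold change ± SE of the tested interferon response genes in transduced against untransduced libraries (left) and in lentiviral libraries numbered 3 against those numbered 1 and 2 (right), filled where the edgeR adjusted p was under 0.05. On the left 10 are lower and 1 is higher, and on the right 15 are higher and 2 lower, with IFIT2 and IFI27 not tested.

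In the wider pathway, 31 of 77 tested genes were higher in the libraries numbered 3 and 14 lower (40.3% and 18.2%, where 27.9% and 25.9% of all genes were), and the median log2 fold change was 0.14. In all 58.4% of them were called, near the 53.8% of all genes. UBE2L6, the enzyme that hands ISG15 to its targets, was 2.73-fold higher (log2 1.45 ± 0.10 SE, edgeR adjusted p = 1.60e-09), at 10.2 to 16.8 CPM against 3.80 to 6.33 CPM. TAPBP, HLA-E and HLA-C, of the antigen-presentation list, were 1.85-fold, 1.79-fold and 2.09-fold higher. STING1 was 1.59-fold higher, at 73.1 to 79.9 CPM against 43.5 to 56.7 CPM, and LGALS3BP, a secreted glycoprotein, 2.30-fold higher. ZNFX1, an RNA helicase, and TRAF3, a signalling adaptor, were 1.46-fold and 1.43-fold lower. IFNAR2 (24.4 to 30.7 against 16.1 to 20.3 CPM), TYK2 (116 to 139 against 75.8 to 110 CPM) and MAVS (182 to 226 against 126 to 198 CPM) were higher, whereas JAK1 (115 to 122 against 119 to 153 CPM) was lower. IFNAR1 did not pass (78.2 to 84.3 against 80.4 to 99.0 CPM).

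The ISRE matches were also counted among the called genes. Of the 9 genes lower in transduced cells that have a window, 6 held it (OAS3, IFIH1, ISG20, IFI27, PSMB8 and TAP1), and IRF1, IFI35 and PSMB9 did not. The call of IFI27 has the limit of the filter given above. Of the 10 genes higher in the libraries numbered 3 that have a window, 6 held it (IFIT3, IFI6, IFITM1, IFITM3, BST2 and PSMB8). Of the 2 genes lower there, ADAR and SAMHD1, 0 held it. Over all 27 genes with a window 66.7% did. A match describes the letters in a window and says nothing of binding.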

How the data were processed

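RNA-seq of 18 K562 libraries was used. The deposited files hold counts per RefSeq transcript accession, made by the authors from poly(A) RNA prepared without strand marking, per the labels. DESeq, R 3.1.2, Picard, SAMtools, Bowtie2 and the build hg19 appear in the submitters' processing notes. How fragments were counted, against which annotation, and what became of reads that align more than once are not given in the sources used here. Every count was even, so 1 fragment gave 2 counts. Accessions were joined to genes through RefSeq GRCh38.p14 and GENCODE tables (97.87% of lines, 99.02% of counts), and counts were summed per gene. The edgeR 4.0.16 filter on low counts left 14720 genes, which held 99.97% of counts. Tests were edgeR's quasi-likelihood test with TMM scaling and Benjamini-Hochberg adjustment over all genes tested, in R 4.3.3; fits were checked on simulated counts. The SE is the log2 fold change divided by the root of its F value, and 95% intervals use the residual degrees of freedom between libraries. Lengths per kilobase are of the longest matched transcript. Groups came from the labels. Library numbers paired the lentiviral libraries: all 30 same-number pairs had correlated deviations (0.15 to 0.84 over 12611 genes), against 18 of 60 pairs of different number and 5 of 15 pairs with an untransduced library. Alternatives were RLE scaling, other count filters, halved counts, DESeq2 1.42.0, a replicate block, fewer libraries and leaving out each library. The named genes are the members by role, with values per library for up to 20 called at 1 CPM or more and the 6 most abundant; of other pathway genes, the 8 with the smallest p and central ones, of which 1 is not reported here. The members and lists were chosen with earlier results of these data known.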

Additional observations from a re-analysis of the deposited data

How the results depend on the processing

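No result changed direction under any alternative run. Of the 11 genes called in transduced against untransduced cells, OAS3, IFIH1 and TAP1 passed in all 28 alternatives, and over the 11 genes 275 of 303 alternative values stayed past the threshold. Leaving out 1 library at a time gave 3 to 12 called genes. There were 3 without no_lentivirus replicate 2 (2.32% of all genes called) and 7 without no_lentivirus replicate 3 (9.01%). Of all genes 24.3% were called without no_lentivirus replicate 1, and the share was not counted for lentiviral libraries left out. The replicate block gave 14 genes, against 28.5% of all genes called, although numbers do not pair the untransduced libraries with the others. For KRAB_no_gRNA against no_lentivirus the count of 5 became 10 with the replicate block (17.8% of all genes). It became 0 with only the groups compared (0.0% of all genes), where fewer samples enter the fit. With libraries numbered 1 and 2 only it was 8, and the share of all genes was not counted. Leaving out 1 library at a time gave 1 to 9. Of all genes 0.18% were called without KRAB_no_gRNA replicate 1, 0.275% without no_lentivirus replicate 2 and 16.3% without no_lentivirus replicate 1. The cause of the other shifts was not tested. For library number, 13 of 17 genes passed in every alternative, and IRF7, IRF9, IFIT3 and IFI6 did not. IRF7 lost the call in 11 of 23 alternatives, IRF9 in 1 of 23, IFIT3 in 2 of 23 and IFI6 in 13 of 22. The 7 comparisons between lentiviral groups gave 0 genes in every alternative, the replicate block included, where at most 0.0959% of all genes passed with the block. Genes under 1 CPM are limited by depth.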
